A study of Mus musculus with 2 samples.

Results

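The hair cell genes of the cochlea and vestibule were examined in the fetal mouse ear at E18.5, shortly before birth. The list held 41 genes, chosen by name, and a gene counted as measured where a probe set was paired with it alone by the array's annotation. By that rule 37 of the 41 were measured, among 19938 genes in all, and Myo15a was found under its other symbol, Myo15. Whrn, Grxcr1, Cib2 and Tomt had no such probe set and were not analysed here. The study compared 1 array of ear RNA from a wild-type fetus or fetuses of the BALB/c strain with 1 array from BALB/c fetal ear null for both Myf5 and Myod1 (Myf5-/-:MyoD-/-). The null genotype is given without a tissue restriction, so a gene could differ in any part of the ear. The sources used here do not give the number of embryos behind each array, the part of the ear dissected or the construction of the null alleles. With 1 array per genotype there was no replicate check on any difference, and none of the differences below was tested.

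Hair cells are the sensory cells of hearing and balance. A bundle of actin-filled stereocilia on the cell's apex is tilted by sound or head movement, which pulls on tip links and opens mechanotransduction channels. The resulting voltage change releases glutamate at ribbon synapses onto afferent neurons, and efferent fibres from the brainstem act back on the cell through a nicotinic acetylcholine receptor. Myf5 and Myod1 encode factors that set cells on the path to skeletal muscle by binding E-box DNA, with the letters CANNTG. The series title names the role of skeletal muscle in ear development as its question, and the comparison here asks how the transcripts of hair cells compared in ears of the 2 genotypes.

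Over all 12458 genes above the median on at least 1 array, 1.71% were at least 2-fold lower in double-knockout ear and 0.482% at least 2-fold higher. Of the 20 hair cell genes above their array's median on at least 1 array, 2 were at least 2-fold lower in double-knockout ear. Mlf1, the gene of myeloid leukaemia factor 1, was at least 4.91-fold lower, and Chrna9, which encodes a subunit of the efferent receptor, was at least 2.16-fold lower. The other 18 of the 20 were within 2-fold, and another 17 measured members were below the median on both arrays, where no fold could be read. The transcription factors, the bundle proteins, the mechanotransduction proteins and the ribbon synapse proteins had 0 such members at 2-fold or more in either direction. These groups had 2, 6, 3 and 3 members above the median on at least 1 array. That is too few to tell 0 from the shares over all genes. In bulk tissue, fewer cells of a type and less RNA per cell cannot be told apart.

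The sequences upstream of the receptor genes and of Mlf1 are shown because these genes hold the list's largest differences and its only receptor pair. They are the 250 bases before a transcript start in RefSeq, build GRCm38.p6, with each CANNTG in capitals. Chrna9 is at chr5:65966874-65967123 on the plus strand, Chrna10, the partner subunit of Chrna9, at chr7:102116714-102116963 on the minus strand, and Mlf1 at chr3:67373847-67374096 on the plus strand.
Chrna9: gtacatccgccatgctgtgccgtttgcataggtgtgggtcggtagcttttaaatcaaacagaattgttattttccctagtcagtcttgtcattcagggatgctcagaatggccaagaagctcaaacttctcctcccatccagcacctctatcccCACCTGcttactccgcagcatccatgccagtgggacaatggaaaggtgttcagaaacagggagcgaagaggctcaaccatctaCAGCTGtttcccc
Chrna10: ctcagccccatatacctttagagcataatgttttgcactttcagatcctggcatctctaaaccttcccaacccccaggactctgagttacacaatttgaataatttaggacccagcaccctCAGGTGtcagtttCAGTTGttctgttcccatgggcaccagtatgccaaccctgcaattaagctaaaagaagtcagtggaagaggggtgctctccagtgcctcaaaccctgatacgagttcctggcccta
Mlf1: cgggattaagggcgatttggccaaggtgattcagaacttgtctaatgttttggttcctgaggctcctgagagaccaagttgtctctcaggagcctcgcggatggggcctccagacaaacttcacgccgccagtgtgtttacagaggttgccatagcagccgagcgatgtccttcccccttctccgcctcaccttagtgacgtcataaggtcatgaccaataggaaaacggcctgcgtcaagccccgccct
The Chrna9 window held CACCTG, beginning 96 bases before the start, and CAGCTG, beginning 13 bases before it. The Chrna10 window held CAGGTG and CAGTTG, beginning 129 and 116 bases before the start, and the Mlf1 window held 0 matches. CANNTG reads as CANNTG on the opposite strand too, so 1 search covered both strands, and CAGCTG is 1 of the forms that CANNTG includes. Of 32851 such windows in RefSeq, 66.2% held CANNTG and 13% held CAGCTG. Of 44 windows of the 34 members with an entry, 65.9% held CANNTG and 25% held CAGCTG. Some members have several windows, which can overlap in sequence. A match is a description of the letters and not a site of binding.

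Values are log2 signals, and each is set against its own array's median over 35557 probe sets, 5.65 in wild-type ear and 5.70 in double-knockout ear. A gene below that median was marked as low, and a fold was computed after low values had been raised to the median, so a fold with 1 low side is a bound. Where a pair of values is given for a gene, the wild type comes first. Probes differ in how well they bind their targets, so levels were compared between arrays for the same gene and not between genes. In wild-type ear 18 of the 37 measured members lay above the median, and in double-knockout ear also 18. The background was 60.6% of all genes above the median in wild-type ear and 60.2% in double-knockout ear. On both arrays 16 members were above it, 2 in wild-type ear alone (Mlf1 and Chrna9), 2 in double-knockout ear alone (Ush1g and Espn) and 17 on neither. Of all 19938 genes, 11626 were above it on both arrays, 450 in wild-type ear alone, 382 in double-knockout ear alone and 7480 on neither. Of the defining markers, Atoh1, Myo7a, Myo6 and Otof were above the median on both arrays, and Pou4f3, Gfi1, Slc26a5, Tmc1 and Ocm were below it on both. Of 10 genes of the inner ear matrix, 7 were above the median on both arrays, among them Oc90, the main otoconial protein, at 11.28 and 11.26, and Tecta, of the tectorial membrane, at 8.74 and 8.76. Otos and Ceacam16 were below it on both. All 18 of a list of skeletal muscle markers were at least 2-fold lower in double-knockout ear. The share was 1.71% over all 12458 genes above the median on at least 1 array. That muscle list was chosen with earlier results of these data known. Its summed linear signal was 25204 in wild-type ear and 710 in double-knockout ear.

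**Figure D1:**
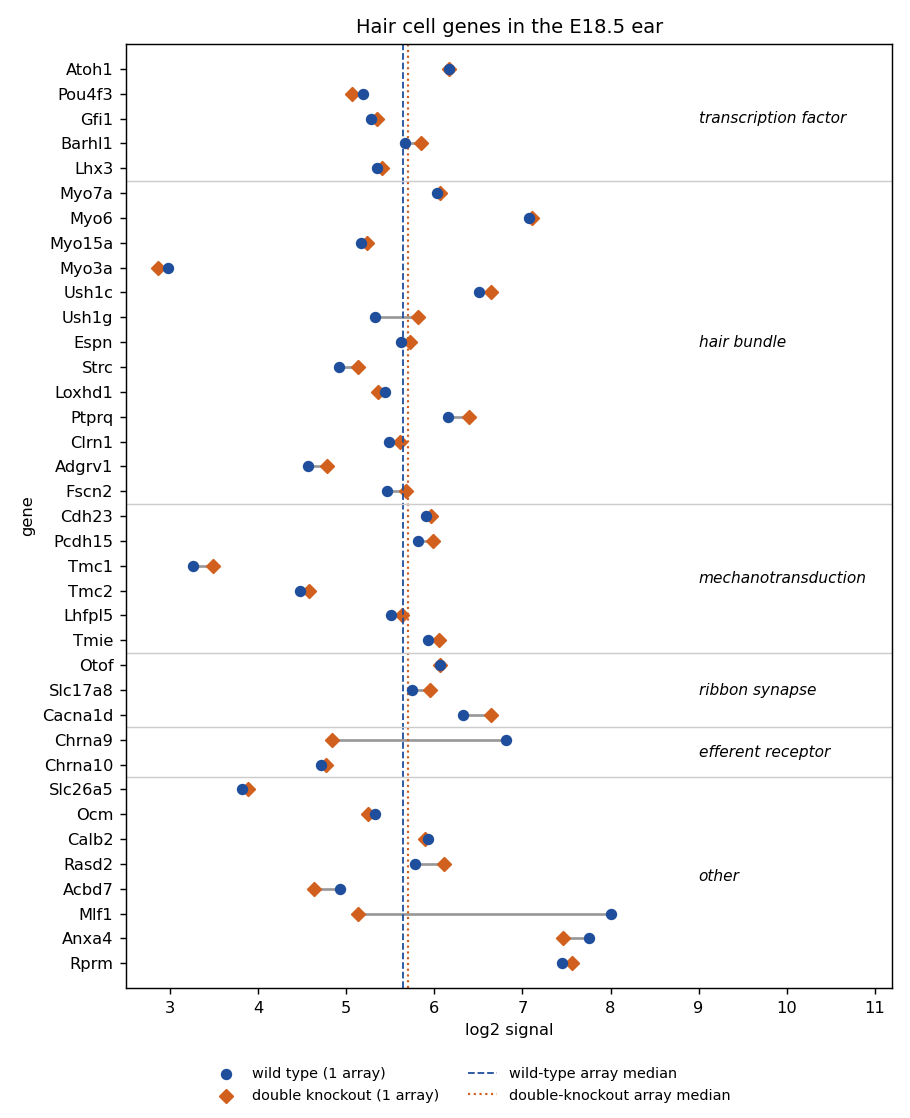
Log2 signal (x axis) of the 37 measured hair cell genes (y axis, grouped by role) on the wild-type array (circles) and the double-knockout array (diamonds), with each array's median as a vertical line. Mlf1 runs from 8.0 to 5.13 and Chrna9 from 6.81 to 4.84, while the other 35 genes differ by 0.50 or less.

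All 5 transcription factors were measured. Atoh1, which starts the hair cell programme, read 6.17 in wild-type ear and 6.17 in double-knockout ear. The deposited values were identical to the last digit, as they were for 703 of all 19938 genes. Barhl1, a homeobox gene needed to maintain hair cells, read 5.67 and 5.85, so it stood only just above the wild-type median, by 0.02. Pou4f3, which hair cells need to survive, read 5.19 in wild-type ear and 5.06 in double-knockout ear. Gfi1, a zinc finger repressor that acts after Pou4f3, read 5.28 and 5.35, and Lhx3, a LIM homeobox gene of hair cells, 5.35 and 5.41. These 3 were below the median on both arrays, with measured differences from -0.13 to 0.07, and carry no fold. The 2 factors above the median, Atoh1 and Barhl1, were within 2-fold, and no fold was computed for the other 3.

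The hair bundle group had 13 of its 15 genes measured. Its 4 members above the median on both arrays were the unconventional myosins Myo7a and Myo6, the scaffold Ush1c and the stereocilia phosphatase Ptprq. Myo7a read 6.03 in wild-type ear and 6.07 in double-knockout ear. Myo6, the myosin found at the base of the bundle, read 7.08 and 7.11. Both myosins thus differed by 0.03 on the log2 scale. Ush1c, the gene of harmonin, which anchors the tip link, read 6.51 and 6.64, a difference of 0.13. Ptprq, part of the links along stereocilia shafts, read 6.15 and 6.39, a difference of 0.24. In each of these 4 the double knockout was the higher array, by no more than 1.18-fold.

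Ush1g, which encodes the scaffold protein SANS, read 5.33 in wild-type ear and 5.82 in double-knockout ear. Its measured difference of 0.50 was the highest among the 37 members, but the wild-type value was low, so the bound was at least 1.13-fold higher. Espn, whose product bundles the actin of stereocilia, read 5.62 and 5.72, lying within 0.02 of the median on each side. The other 7 bundle genes were below the median on both arrays, with 2.98 to 5.49 in wild-type ear and 2.86 to 5.68 in double-knockout ear. They were Myo15a and Myo3a, both myosins of stereocilia tips, Strc, the gene of stereocilin, Loxhd1, Clrn1, the gene of clarin, Adgrv1, which forms ankle links, and the actin cross-linker Fscn2. Their measured differences ran from -0.12 for Myo3a to 0.22 for Fscn2, with 5 higher and 2 lower in double-knockout ear. Fscn2, at 5.68, was just under the double-knockout median. Loxhd1 had another probe set, at 4.88 and 5.33, whose difference of 0.45 went the other way from the -0.08 of the probe set used, and both were low on both arrays.

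Usher syndrome, an inherited loss of hearing and sight, names a further grouping across bundle and tip link genes. The 7 Usher genes measured were Myo7a, Ush1c, Cdh23, Pcdh15, Ush1g, Adgrv1 and Clrn1. All 7 were higher in double-knockout ear as measured, by 0.03 to 0.50. This count was made after the values had been seen, and Adgrv1 and Clrn1 were low on both arrays. The share of genes that were higher in double-knockout ear was 54.0% of all 19938, 47.6% of the 11626 above the median on both arrays (median difference -0.01) and 64.9% of the 7480 below it on both (median 0.13).

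The mechanotransduction group had 6 of 8 genes measured. Cdh23 and Pcdh15 encode the cadherins that form the tip link. Cdh23 read 5.90 in wild-type ear and 5.96 in double-knockout ear. Pcdh15 read 5.82 and 5.98, and its other probe set, low on both arrays, 4.90 and 5.33. Tmie, a subunit of the transduction channel complex, read 5.93 and 6.05. The 3 genes above the median thus differed by 0.06 to 0.16. Tmc1 and Tmc2, the pore-forming proteins of the channel, were low on both arrays, with Tmc1 at 3.26 and 3.49 and Tmc2 at 4.47 and 4.58. Lhfpl5, another subunit, read 5.51 and 5.63. Tmc1 was also below the 25th percentile of both arrays, as were Myo3a and Slc26a5, so nothing can be said of these 3 beyond a low signal.

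All 3 ribbon synapse genes were above the median on both arrays. Otof encodes otoferlin, the calcium sensor of transmitter release, and read 6.07 in wild-type ear and 6.06 in double-knockout ear. Slc17a8, the glutamate transporter VGLUT3 that fills the vesicles, read 5.75 and 5.95. Cacna1d, the calcium channel that triggers release, read 6.33 and 6.64, or 1.24-fold higher. The differences of -0.01, 0.21 and 0.31 ran from level to slightly higher in double-knockout ear. Of all 12458 genes above the median on at least 1 array, 8.83% had a higher difference than Cacna1d.

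The efferent receptor is built from the subunits Chrna9 and Chrna10. Chrna9 (probe set 10522186) read 6.81 in wild-type ear and 4.84 in double-knockout ear, at least 2.16-fold lower, and its measured difference was -1.97. Chrna10 (probe set 10566091) read 4.71 and 4.77 and was low on both arrays. Chrna9 was thus above the median in wild-type ear alone, and for Chrna10, low on both arrays, no fold was computed. Of the 12458 genes, 185 had a lower difference than Chrna9.

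Chrna9 belongs to a family of nicotinic receptor subunits, and all 16 family members were listed after the values of Chrna9 had been seen. Of 11 above the median on at least 1 array, 5 were at least 2-fold lower in double-knockout ear, 0 were higher and 6 were within 2-fold, beside 1.71% lower and 0.482% higher of all 12458 such genes. The other 4 that were lower are the subunits of the fetal muscle receptor. Chrna1 read 7.66 and 4.0, at least 3.89-fold lower. Chrnd read 7.20 and 4.89, at least 2.82-fold lower, Chrnb1 7.15 and 5.63, at least 2.74-fold, and Chrng 6.88 and 5.21, at least 2.26-fold. These 4 and Chrna9 were all above the median in wild-type ear and below it in double-knockout ear. So was Chrna5, a subunit within 2-fold, at 5.90 and 5.45. Of all 19938 genes, 450 were above the median in wild-type ear alone. Chrne, the subunit of the adult muscle receptor, was low on both arrays at 4.89 and 4.81. Among subunits of neurons, Chrna3 and Chrnb4, which work together in autonomic ganglia, differed by -0.85 and -0.75, Chrna4 by 0.07, Chrna7 by 0.26 and Chrnb2 by 0.48. The part of skeletal muscle RNA in the Chrna9 difference was not tested.

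**Figure D2:**
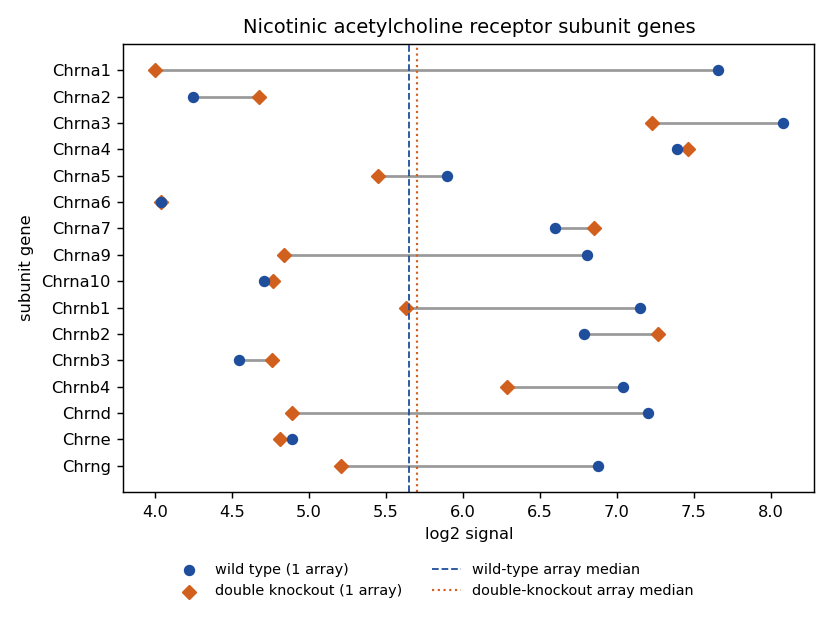
Log2 signal (x axis) of 16 nicotinic acetylcholine receptor subunit genes (y axis) in wild-type ear (circles) and double-knockout ear (diamonds), 1 array each, with each array's median as a vertical line. Chrna9 spans the medians in the same direction as Chrna1, Chrna5, Chrnb1, Chrnd and Chrng, whereas Chrna10 stays near 4.71 to 4.77.

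The remaining 8 members were placed in none of these groups. Mlf1 (probe set 10492469), an adaptor protein first known from a leukaemia translocation, read 8.0 in wild-type ear and 5.13 in double-knockout ear. It was at least 4.91-fold lower, with a measured difference of -2.86, and 73 of the 12458 genes had a lower difference. Anxa4, an annexin that binds membrane in the presence of calcium, read 7.76 and 7.46, which was 1.23-fold lower. Rprm, a cell cycle inhibitor, read 7.45 and 7.56. Mlf1 thus had a far larger gap between the arrays than Anxa4 or Rprm. Calb2, the calcium buffer calretinin, read 5.93 and 5.89, and Rasd2, a small GTPase, 5.78 and 6.11, which was 1.25-fold higher. Slc26a5, the motor protein prestin of outer hair cells, read 3.82 and 3.89, and Ocm, the calcium buffer oncomodulin of the same cells, 5.33 and 5.25. Acbd7, an acyl-CoA-binding protein, read 4.93 and 4.63. These last 3 were low on both arrays.

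Over the 20 members above the median on at least 1 array, 2 (10.0%) were at least 2-fold lower, beside 1.71% of all such genes, and 0 were at least 2-fold higher, beside 0.482%. At 1.5-fold 2 were lower and 0 higher, beside 3.62% and 2.25% of all such genes, and at 3-fold 1 was lower and 0 higher, beside 0.963% and 0.128%. The list was drawn up with earlier results of these data known, and Mlf1 and Chrna9 both passed the filter on low values through the wild type alone, so the count does not speak for the list. The median difference was 0.09 over these 20 and -0.01 over the 12458 genes. Over all 37 measured members the median of the measured differences was 0.08, with 26 higher, 10 lower and 1 identical. Over all 19938 genes the median was 0.03, with 10772 higher, 8463 lower and 703 identical. The 16 members above the median on both arrays ranged from -0.30 for Anxa4 to 0.33 for Rasd2, with a standard deviation of 0.152 across genes. The same standard deviation over all 11626 genes above both medians was 0.344. This filter left out Mlf1 and Chrna9, while muscle genes such as Acta1, at -6.46, passed it. The smaller spread of the members therefore does not speak for the list. Between probe sets that share a gene, the pooled standard deviation of the difference was 0.168 over 619 genes, which is a measure of probe noise and not of the spread between animals.

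**Figure D3:**
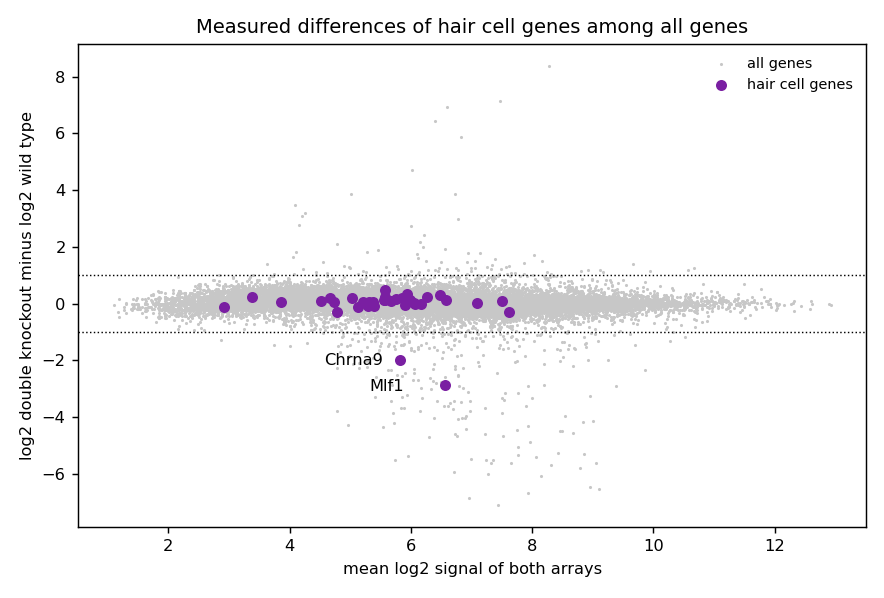
Measured log2 difference, double knockout minus wild type (y axis), against the mean log2 signal of both arrays (x axis) for all genes (grey) and the 37 hair cell genes (purple), with dotted lines at 2-fold. All hair cell genes but Mlf1 and Chrna9, at -2.86 and -1.97, lie between the dotted lines.

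Another 40 hair cell genes outside the list were set beside it, of which 39 were measured and 28 lay above the median on at least 1 array. Over all 12458 genes above the median on at least 1 array, 1.71% were at least 2-fold lower and 0.482% at least 2-fold higher. Of the 28, 3 (10.7%) were at least 2-fold lower, 1 was at least 2-fold higher and the other 24 lay between, with a median of 0.00. The lower genes were Smpx, a small cytoskeletal protein of muscle that is also linked to deafness (9.43 and 5.57, at least 13.3-fold), Xirp2, an actin-binding protein of muscle and stereocilia (7.49 and 4.21, at least 3.46-fold), and Pvalb, the calcium buffer parvalbumin (7.84 and 6.33, 2.84-fold). All 3 are also known from skeletal muscle. Elmod1, a GTPase-activating protein of stereocilia that neurons also make, was the higher gene, at 6.86 and 8.10, or 2.36-fold.

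Markers of other cells showed what else moved between the arrays. In the muscle list the median was -3.50 with low values raised to the median. Of all 12458 genes above the median on at least 1 array, 12185 were within 2-fold. Of all 19938 genes, 11626 were above it on both arrays. All 16 supporting cell genes were above it on both arrays and within 2-fold, with a median of 0.06. Their differences ran from -0.32 to 0.69, and Sox2, which both supporting and hair cell precursors need, read 7.54 and 7.69. Of the 10 genes of the tectorial, otoconial and other inner ear matrix, 8 were above the median on at least 1 array and all 8 were within 2-fold, with a median of -0.02. Of 20 genes of ciliated epithelium, 16 were low on both arrays, and Foxj1, the transcription factor of motile cilia, read 5.79 and 5.83. Tppp3, a tubulin-binding protein, was the exception in that list at 10.43 and 8.96, 2.76-fold lower. Among 12 measured genes of sensory ganglion neurons, 5 were higher and 7 lower in double-knockout ear as measured. Of the 11 above the median on at least 1 array, 10 were within 2-fold and Neurod1 was 2.24-fold higher. Their median was -0.02, and the lowest difference was that of Prph, at 8.75 and 8.23. The part of muscle, neuronal or ciliated cell content in the differences of Mlf1, Chrna9, Smpx, Xirp2, Pvalb and Elmod1 was not tested.

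**Figure D4:**
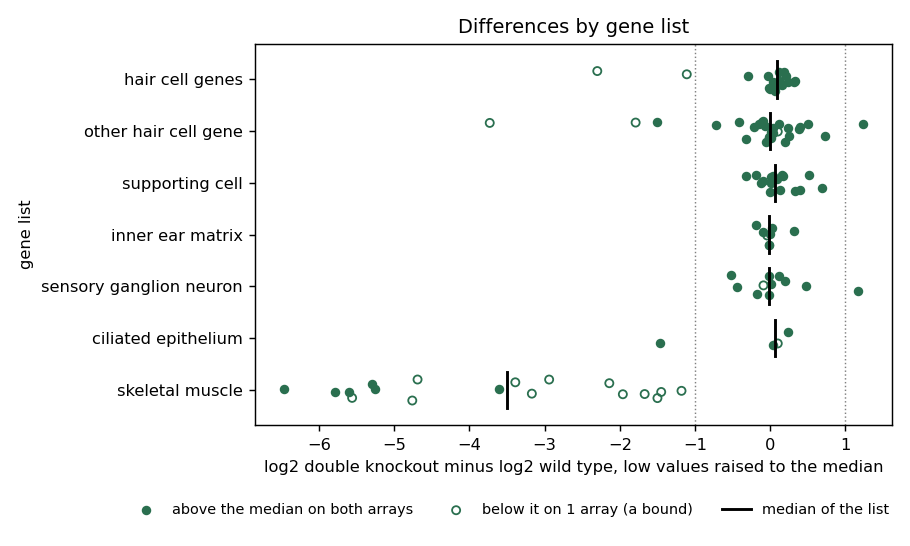
Log2 difference, double knockout minus wild type, with low values raised to the array's median (x axis), for each gene above the median on at least 1 array in 7 gene lists (y axis). Filled points were above the median on both arrays, open points are bounds, vertical bars are list medians and dotted lines mark 2-fold; the hair cell median is 0.09 and the skeletal muscle median -3.50.

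Members of the list are close neighbours of both targeted genes. In the RefSeq gene order of GRCm38.p6, Ptprq lies 2 protein-coding genes from Myf5, beyond Myf6, and Ush1c lies 2 from Myod1, beyond Otog. Of the targeted genes, Myf5 (probe set 10372226) read 5.94 in wild-type ear and 5.25 in double-knockout ear, and Myod1 (probe set 10553256) 6.95 and 6.38. The sources used here do not say whether these probe sets lie in the deleted parts, so they say little about the alleles. Myf6, a muscle regulator, read 8.04 and 4.27. Past Myf6, Ptprq was 0.24 higher in double-knockout ear, and the next gene, Otogl, an otogelin relative of the inner ear, read 6.66 and 6.65. On the other chromosome Ush1c was 0.13 higher, and Otog, the gene of otogelin, which lies between it and Myod1, read 7.24 and 7.05. The inner ear genes beside both targeted genes were thus within 2-fold of the wild type, with Myf6 at least 5.05-fold lower between Myf5 and Ptprq.

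**Figure D5:**
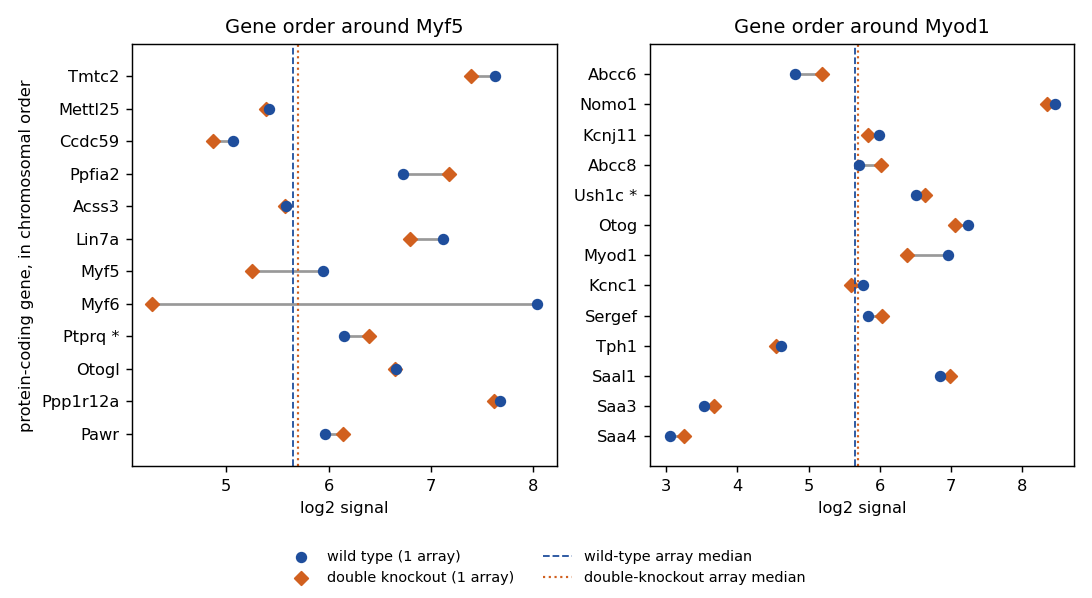
Log2 signal (x axis) of the protein-coding genes around Myf5 (left) and Myod1 (right), in chromosomal order (y axis), in wild-type ear (circles) and double-knockout ear (diamonds), 1 array each, with each array's median as a vertical line; asterisks mark hair cell genes. Myf6 runs from 8.04 to 4.27, while Ptprq and Ush1c differ by 0.24 and 0.13.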

How the data were processed

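Total RNA of E18.5 ear was extracted with Trizol and labelled with biotin from 6 µg, per the labels' protocols. The authors deposited 1 log2 value per probe set and array. The base of the logarithm was read from the range of values, 0.75 to 13.27. The submitters' processing notes name MAS5. The sources used here name no background correction, between-array normalization or genome build. Beyond the name MAS5, how the probe signals became these values is not known here. The medians differed by 0.05, and the values were used as deposited.

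The platform annotation paired 21789 probe sets with 1 gene, 1621 with several (not used) and 12147 with none. Of the first, 21698 had an Entrez identifier in a RefSeq table of GRCm38.p6, which gave current symbols and synonyms. For a gene with several probe sets, that with the highest mean linear signal was used. Values below each array's 50th percentile were raised to it, and genes above it on at least 1 array were counted at 2-fold. The calculation was tested on simulated data (Python 3.11.15, pandas 2.3.3, statsmodels 0.14.6 for loess). There was 1 array per group, which limits the precision, and no test or p-value was possible. The members, the lists and a rule for named genes were chosen with earlier results of these data known. The rule was every member, and of other lists those past 2-fold or of highest signal. Sox2, Otos and Ceacam16 were named outside that rule, and not every gene that it covers was named. The nicotinic, Usher and neighbour genes were added with their values in view. Alternatives were 3 other scalings, a threshold of 1.5-fold or 3-fold, the median of several probe sets, the floor moved to the 25th or 75th percentile or left out, and addition of the array's median to the linear signal.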

Additional observations from a re-analysis of the deposited data

How the results depend on the processing

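Mlf1 and Chrna9 were the 2 members at least 2-fold lower, and 0 were higher, under equal medians, quantile normalization, loess, the median over probe sets, a floor at the 25th percentile, no floor, the pseudocount and 1.5-fold; Chrna9 was not lower at 3-fold, which left 1. With the floor at the 75th percentile 3 members lay above it in the wild type (Mlf1, Anxa4 and Rprm) and 2 in the double knockout, 0 were lower, 3 were within 2-fold, the bound of Mlf1 was -0.65 and the median was -0.30. The median over all entering members was otherwise 0.04 to 0.11. Members within 2-fold numbered 32 with the floor at the 25th percentile, where 34 lay above it on each array, and 35 with no floor or the pseudocount. Without Mlf1 and Chrna9, an alternative added after the data had been seen, 0 members were lower and the median was 0.11. Of 142 values of single members under the alternatives, 134 moved by less than the spread between probe sets of a gene, 8 moved further and 0 that had passed 2-fold changed sign. Many of the 134 could not move, since a lower floor or none leaves a member above both medians unchanged. Only Mlf1 and Chrna9 had passed 2-fold. The 8 were of Ush1g (0.50 with the floor at the 25th percentile or none), Chrna9 and Mlf1. No paired analysis was possible because each genotype had 1 array. With 1 array per genotype no difference has a replicate check, and 17 of 37 measured members lay below the median on both arrays, where no fold was computed.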
